A study of Homo sapiens with 16 samples.

Results

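Mitophagy and mitochondrial remodelling genes form the set described here: 9 genes, chosen by name, of 19794 protein-coding genes annotated on the human genome build GRCh37. BNIP3, BNIP3L and FUNDC1 encode mitophagy receptors, LONP1 a protease of the mitochondrial matrix, COX4I2, NDUFA4L2 and HIGD1A proteins of the respiratory chain, AK4 an adenylate kinase of the matrix and MXI1 an antagonist of MYC. A binding site was counted for a gene when its centre lay within 50 kb of the start of one of the gene's protein-coding transcripts, and the nearest gene was recorded for every site. By this rule 95 of 23398 peaks belonged to the set. Merging peaks that overlapped by at least 1 bp in any library gave 16 sites near the 9 genes, of 11664 sites in all.

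Hypoxia-inducible factors (HIFs) are pairs of an oxygen-regulated α subunit, HIF-1α or HIF-2α, and the constitutive HIF-1β. They bind DNA at a short core, ACGTG or GCGTG, and activate genes that lower the use of oxygen by the cell. Mitochondria are the main consumers of oxygen, and HIF target genes act on them by removing whole organelles (mitophagy), by exchanging subunits of the respiratory chain and by restraining the MYC-driven production of new mitochondria.

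ChIP-seq, the sequencing of DNA fragments that an antibody pulls down together with a chosen chromatin protein, was performed in the study to ask which genes HIF binds directly in cancers of different tissues. The 16 libraries came from 4 established lines: A549 (lung), HCT116 (colorectal), PC3 (prostate) and T47D (breast cancer). All were cultured in 0.5% oxygen for 16 hours, with no normoxic ChIP used here, and each combination of line and α subunit (isoform) had 2 replicate libraries. Rabbit polyclonal antibodies, 1 for each isoform, were used, so that isoform and antibody cannot be told apart. The labels do not say whether replicates came from separate cultures, and p-values therefore measure the spread between libraries, which may be technical. Lists held 275 to 4505 peaks. Their read depth is unknown, and a missing peak may lie below the threshold of the peak caller. A peak list holds no expression values, so the identity of the lines was not checked against marker genes. Each peak is given below by the percentile of its score, which is the percentage of the peaks of its own list that scored no higher. A library with no peak at a site was given 0.

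The 16 sites fell very unevenly over the set. The best sites of AK4, MXI1, BNIP3, BNIP3L and LONP1, those in most libraries, were centred less than 1 kb from a transcript start and were found in 10 to 16 libraries. COX4I2 had no peak at its own start, and the 4 sites within its window all lay nearer to ID1. NDUFA4L2 and HIGD1A had peaks at a start in 1 library each, and FUNDC1 had 0 peaks within 50 kb. In total, 6 of the 16 sites were found in 1 library only and 9 in fewer than 4.

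The DNA under the main sites is shown here so that the HIF cores of each gene, which differ in number and spacing, can be set beside its binding. For 6 of the genes, up to 200 bases of the central 400 bp are printed from GRCh37, being the stretch free of annotated untranslated regions that held most cores. All run 5′ to 3′ on the strand of the gene. Capitals mark ACGTG or GCGTG on either strand (CACGT and CACGC are their reverse complements, and CACGTG holds ACGTG on both strands). BNIP3 is shown at chr10:133795472-133795654 (minus strand), LONP1 at chr19:5720177-5720229 (minus strand), AK4 at chr1:65614195-65614394, MXI1 at chr10:111969722-111969921, the site near ID1 in the COX4I2 window at chr20:30196127-30196326 (plus strand for these 3), and HIGD1A at chr3:42846047-42846246 (minus strand).
BNIP3: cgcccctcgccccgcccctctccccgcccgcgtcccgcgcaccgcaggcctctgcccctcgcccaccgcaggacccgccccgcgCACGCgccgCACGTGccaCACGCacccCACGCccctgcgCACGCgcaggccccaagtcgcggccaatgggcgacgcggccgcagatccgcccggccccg
LONP1: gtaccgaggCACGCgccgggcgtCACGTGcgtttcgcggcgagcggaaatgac
AK4: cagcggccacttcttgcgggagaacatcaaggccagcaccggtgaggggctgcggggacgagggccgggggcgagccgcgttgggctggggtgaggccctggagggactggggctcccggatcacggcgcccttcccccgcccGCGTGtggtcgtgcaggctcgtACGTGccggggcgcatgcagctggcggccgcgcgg
MXI1: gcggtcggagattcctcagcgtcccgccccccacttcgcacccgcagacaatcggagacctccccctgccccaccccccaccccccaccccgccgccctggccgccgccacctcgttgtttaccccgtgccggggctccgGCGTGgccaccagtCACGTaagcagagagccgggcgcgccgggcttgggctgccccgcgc
COX4I2: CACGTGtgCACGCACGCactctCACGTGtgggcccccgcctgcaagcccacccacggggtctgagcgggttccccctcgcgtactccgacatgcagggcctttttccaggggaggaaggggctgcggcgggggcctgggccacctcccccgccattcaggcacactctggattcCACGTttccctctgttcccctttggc
HIGD1A: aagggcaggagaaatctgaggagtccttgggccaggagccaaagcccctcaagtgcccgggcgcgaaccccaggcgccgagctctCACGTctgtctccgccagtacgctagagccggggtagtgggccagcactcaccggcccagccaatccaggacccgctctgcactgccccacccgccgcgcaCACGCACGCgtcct

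Cores were counted on both strands, so that a palindromic CACGTG counts as 2. The BNIP3 stretch held 6 cores, all between 141 and 102 bp upstream of the start, around 1 CACGTG. The LONP1 stretch of 53 bases held 3, a CACGC followed by a CACGTG, and its neighbouring bases are untranslated sequence and not shown. AK4 and MXI1 each had 2 cores close to the site centre, 1 of each form. The 200 bases near ID1 held 7 cores, 6 of them clustered at the 5′ end in a pair of CACGTG and the CACGCACGC between them. The HIGD1A stretch, bound in 1 library, held 3. In the central 200 bp, 11 of the 16 member sites (68.8%) held a core, against 52.2% of all 11664 sites and 75.2% of the 1421 sites found in at least 4 libraries. The count of 6 in the central 200 bp at LONP1 was reached by 0.934% of all sites. BNIP3L, the strongest mitophagy receptor site, had 0 cores in its central 200 bp, 2 in its central 400 bp and 16 over its whole length. A core in these windows is a match of letters and not a measured contact.

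**Figure D1:**
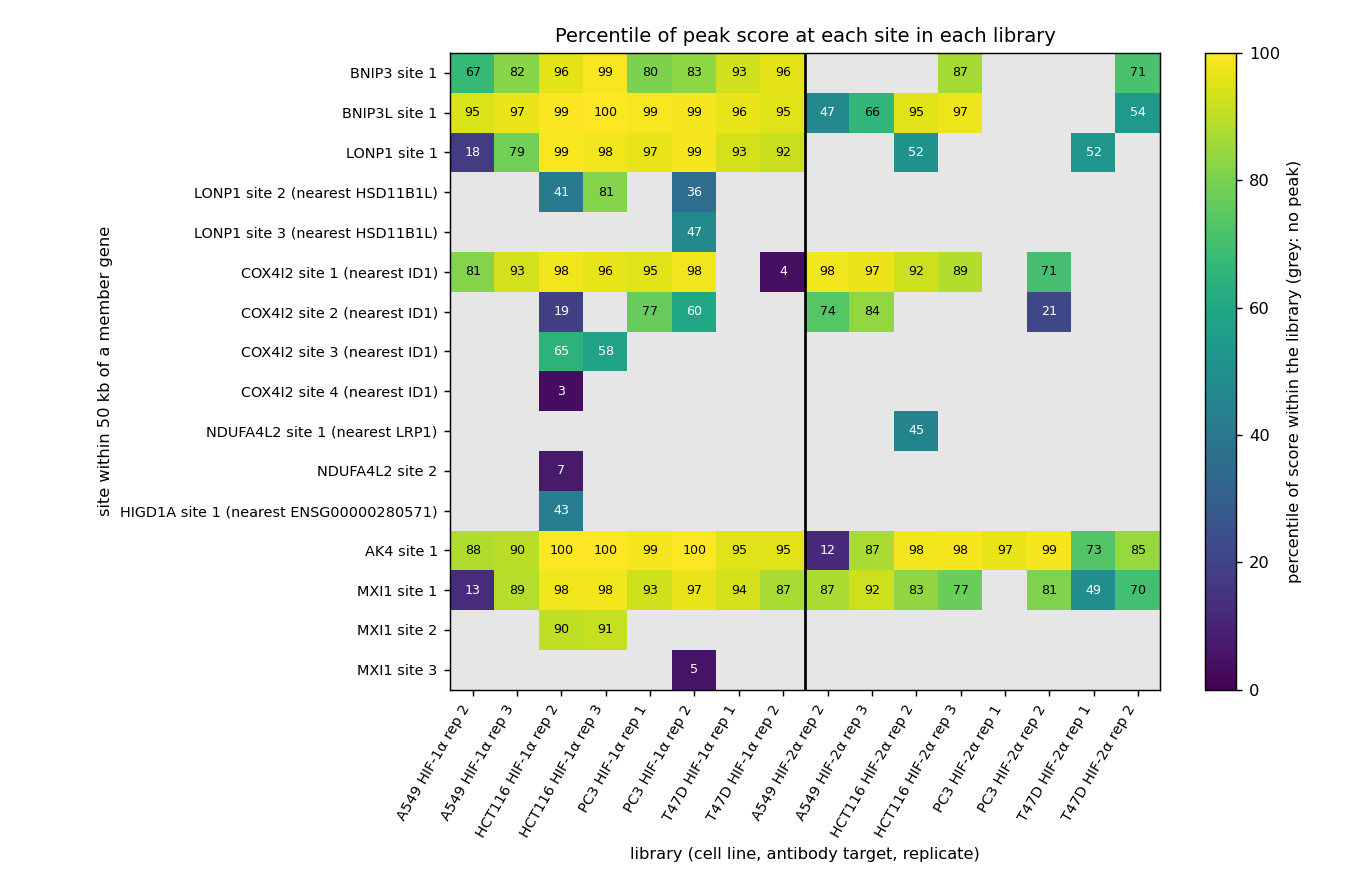
Percentile of the peak score (colour and number, 0 to 100, grey where no peak was listed) at each of the 16 sites near a member gene (rows) in each of the 16 libraries (columns, HIF-1α left of the line and HIF-2α right of it). AK4 is filled in all 16 libraries, BNIP3 and LONP1 in all 8 HIF-1α libraries and in 2 HIF-2α libraries each, and 6 rows hold a single library.

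Of the 3 mitophagy receptors, BNIP3 and BNIP3L had a site at the start of the gene with higher percentiles for HIF-1α, and FUNDC1 had none. BNIP3 encodes a protein of the outer mitochondrial membrane that carries mitochondria to the autophagosome by binding LC3. Its site, chr10:133794601-133796149, was centred 28 bp upstream of the representative start of the gene. The HIF-1α libraries of A549 stood at percentiles 67.0 and 82.0, those of HCT116 at 96.0 and 99.0, those of PC3 at 80.2 and 83.2, and those of T47D at 92.9 and 95.8. HIF-2α peaks were listed in HCT116 replicate 3 (86.7) and T47D replicate 2 (71.2) and in neither replicate of A549 or PC3. In every line both HIF-1α libraries were above both HIF-2α libraries. The peaks of both isoforms lay over the same stretch, with HIF-1α centres between 149 bp upstream and 52 bp downstream of the start and HIF-2α centres 72 and 46 bp upstream.

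BNIP3L (also called NIX), the paralog of BNIP3 that also clears mitochondria from maturing red cells, had the highest mean HIF-1α percentile of the 16 sites, 97.5 over the 8 libraries. The site, chr8:26239835-26241895, was centred in an intron 400 bp downstream of the representative start. For HIF-1α the percentiles were 99.3 and 99.8 (HCT116), 98.9 and 98.7 (PC3), 96.3 and 95.1 (T47D), and 94.5 and 97.1 (A549). For HIF-2α they were 95.0 and 97.4 in HCT116 and 46.96 and 65.8 in A549, with 1 peak in T47D (54.2 in replicate 2) and no peak in PC3. HIF-2α in HCT116 thus came within the range that HIF-1α covered over all lines, and HIF-2α was lowest in PC3, though within each line no HIF-2α library reached a HIF-1α library. The HIF-1α peaks spanned 1204 to 2016 bp and the HIF-2α peaks 471 to 1657 bp. Another site, 61037 bp away and so outside the 50 kb window, was found in 8 libraries. Its HIF-2α percentiles were 71.8 and 68.8 in A549, 92.0 in PC3 replicate 2 and 31.0 in HCT116 replicate 3. Its HIF-1α percentiles were 82.3 and 71.0 in HCT116, 74.3 in PC3 replicate 2 and 1.75 in A549 replicate 3. Its isoform difference of -4.27 percentile points did not pass the exact permutation test described below (adjusted p = 0.838).

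FUNDC1, the mitophagy receptor whose affinity for LC3 is set by phosphorylation, had no site: the nearest in any library was 937115 bp from its start on chromosome X. The 300 bases around its start, from 250 before to 50 after, held no core, as at NDUFA4L2 and at MXI1, whose main site was nevertheless in 15 libraries. The same window held 7 at LONP1, 6 at BNIP3, 4 at BNIP3L, 3 at AK4, 3 at HIGD1A and 2 at COX4I2. Of all 19794 promoters, 56.6% held at least 1 core in that window.

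LONP1 encodes the matrix protease that degrades, among others, the COX4-1 subunit of cytochrome c oxidase when COX4-2, the product of COX4I2, replaces it in hypoxia. Its site, chr19:5719327-5721282, was centred 113 bp upstream of the representative start. HIF-1α libraries reached percentiles of 98.9 and 97.9 (HCT116), 96.6 and 98.6 (PC3), 93.4 and 91.8 (T47D), and 17.5 and 78.7 (A549). HIF-2α peaks were listed in HCT116 replicate 2 (51.5) and T47D replicate 1 (52.5) and in no other library. A549 was the line with the weakest HIF-1α binding at LONP1, and its replicates were far apart (48.1 ± 43.2, SD, n = 2). A pair of further sites inside the gene's window, one in a coding exon of HSD11B1L and one at a start of that gene, both lay nearer to it than to LONP1. They were found in 3 libraries and 1 library, all HIF-1α, with percentiles of 35.7 to 81.3.

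**Figure D2:**
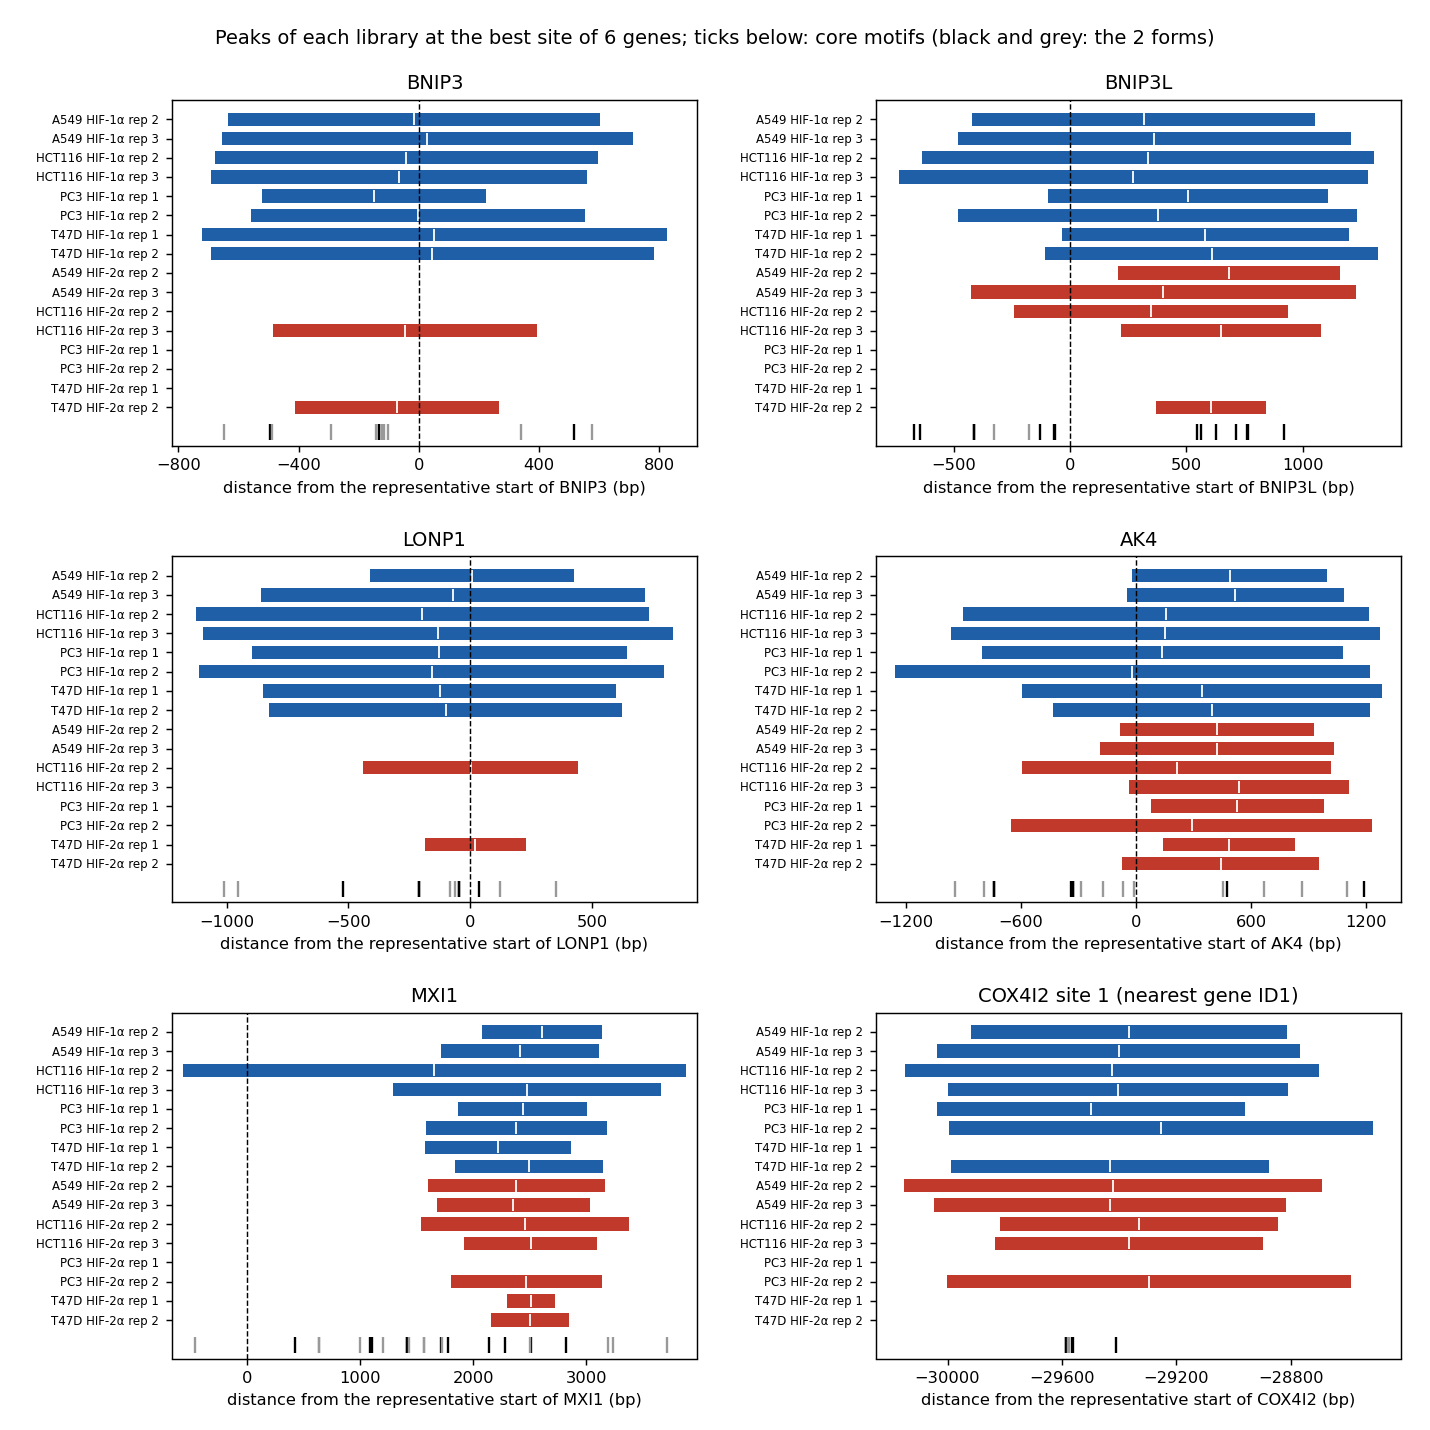
Extent of the peak of each library (bars, HIF-1α blue and HIF-2α red, white mark at the centre) at the best site of 6 genes, against the distance in bp from the gene's representative start (dashed line, positive downstream), with ticks for ACGTG (black) and GCGTG (grey) cores. The BNIP3 and LONP1 peaks straddle the start, the MXI1 site is centred 2459 bp downstream of the representative start, and the COX4I2 panel lies 29404 bp upstream of its gene.

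The respiratory chain genes had little binding of their own. COX4I2 encodes the hypoxia-associated isoform of subunit 4 of cytochrome c oxidase. No library listed a peak within 1 kb of its start at 30225715 on chromosome 20. The site best represented in its window, chr20:30195565-30197201, lay 29404 bp upstream of COX4I2 and 3219 bp downstream of the start of ID1, an inhibitor of helix-loop-helix transcription factors, so its assignment to COX4I2 rests on distance alone. HIF-1α percentiles there were 97.7 and 96.3 (HCT116), 95.1 and 97.9 (PC3), and 81.4 and 93.2 (A549), whereas T47D had 3.80 in replicate 2 and no peak in replicate 1. HIF-2α percentiles were 97.8 and 96.9 (A549), 92.2 and 88.6 (HCT116), and 70.7 in PC3 replicate 2, with no peak in the other PC3 library or in T47D. The site was thus strong for both isoforms in A549 and HCT116 and nearly missing in T47D. In A549 both HIF-2α libraries were above both HIF-1α libraries, and in HCT116 and PC3 the order was the opposite.

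A second site near ID1, chr20:30197858-30199883, was found in 6 libraries. Its percentiles were 73.5 and 83.8 for HIF-2α in A549, 76.7 and 60.1 for HIF-1α in PC3, 21.3 for HIF-2α in PC3 replicate 2 and 19.05 for HIF-1α in HCT116 replicate 2. A549 had HIF-2α peaks alone at this site. The third site spanned the start of ID1 and was found in the HCT116 HIF-1α libraries (64.8 and 57.8), and the fourth was in 1 library (3.29).

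NDUFA4L2 encodes a relative of a cytochrome c oxidase subunit that is induced by hypoxia and lowers complex I activity. A peak 216 bp downstream of an alternative start, 3372 bp upstream of the representative start, was listed in HCT116 HIF-1α replicate 2 alone. It stood at the 7.15 percentile with a score of 52.2, where the lowest scores of the lists were 50 to 50.15. The other site in the gene's window lay 47306 bp away in an intron of LRP1 and was found in HCT116 HIF-2α replicate 2 (45.1). HIGD1A, a small inner membrane protein that associates with cytochrome c oxidase, had a peak 165 bp upstream of its start in HCT116 HIF-1α replicate 2 (42.6) and in no other library. The start of a gene listed only as ENSG00000280571 was 3 bp nearer to it. HCT116 HIF-1α replicate 2 was also the longest list, with 4505 peaks, and neither promoter peak was found in its partner replicate with 4465 peaks.

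AK4 and MXI1 had the most widely shared sites. AK4 encodes an adenylate kinase of the mitochondrial matrix, which has little catalytic activity of its own and is linked to resistance to stress. Its site, chr1:65612628-65615171, lay in an intron 409 bp downstream of the start and was found in all 16 libraries. The HIF-1α percentiles were 99.8 and 99.6 (HCT116), 98.7 and 99.8 (PC3), 95.0 and 95.4 (T47D), and 88.0 and 89.7 (A549). The HIF-2α percentiles were 98.3 and 98.4 (HCT116), 96.7 and 98.6 (PC3), 73.3 and 84.7 (T47D), and 11.9 and 87.1 (A549). A549 HIF-2α replicate 2 stood apart from the other 15 libraries, which were all at 73.3 or above. The isoforms did not overlap within any line, but in HCT116 and PC3 all 8 libraries were at 96.7 or above. Scores, which are not comparable between lists of different depth, ran from 55.35 to 2736.87.

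MXI1 competes with MYC for their partner MAX and so opposes the MYC programme that sustains mitochondrial mass. Its main site, chr10:111966795-111971243, was centred in an intron of the representative transcript, 2459 bp downstream of that start, and 167 bp upstream of an alternative start. Percentiles for HIF-1α were 98.0 and 97.8 (HCT116), 92.7 and 96.7 (PC3), 93.6 and 86.9 (T47D), and 12.6 and 89.0 (A549). Percentiles for HIF-2α were 87.3 and 92.3 (A549), 83.5 and 77.4 (HCT116), 49.4 and 70.0 (T47D), and 80.7 in PC3 replicate 2, with no peak in PC3 replicate 1. HIF-1α was above HIF-2α in every library of HCT116, PC3 and T47D, and the isoforms overlapped in A549. The PC3 library without the peak was also the shortest list, with 275 peaks.

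MXI1 had a second site at another cluster of its starts, chr10:111985479-111987724, listed in both HCT116 HIF-1α replicates (90.3 and 91.2) and in no other library. Its central 200 bp held 7 GCGTG cores, a count reached by 0.472% of all sites, and the whole site held 48. The third site, 19134 bp upstream, was in 1 library (5.48).

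For comparison with all genes, a gene was counted in a group when both replicates had a peak in its window. In HIF-1α groups 6 of the 9 members had a peak within 50 kb in A549, where 2.60% of all genes did, 6 in HCT116 (27.8% of all genes), 6 in PC3 (12.6%) and 5 in T47D (5.19%). In HIF-2α groups the members counted were 4 in A549 (4.64% of all genes) and 4 in HCT116 (3.82%), against 2 in T47D (1.31%) and 1 in PC3 (1.20%). BNIP3, BNIP3L, LONP1, AK4 and MXI1 were the HIF-1α genes of all 4 lines, joined by COX4I2 outside T47D, and AK4 was the sole HIF-2α gene of all 4 lines. Over lines, 23 of the 36 pairs of a gene and a line had HIF-1α peaks in both replicates and 11 had HIF-2α peaks. The HIF-2α count rose to 19 when a peak in either replicate was enough, and that of HIF-1α to 26.

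Within 1 kb of a start the same 5 genes were counted for HIF-1α in each line. The corresponding shares of all genes were 10.7% (HCT116), 3.93% (PC3), 1.77% (T47D) and 0.753% (A549). HIF-2α was counted at 3 members in A549 (0.697% of all genes) and 3 in HCT116 (0.738%), against 2 in T47D (0.202%) and 1 in PC3 (0.162%). The members had been named as HIF targets beforehand, so that their excess over all genes describes the choice and is no independent evidence.

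**Figure D3:**
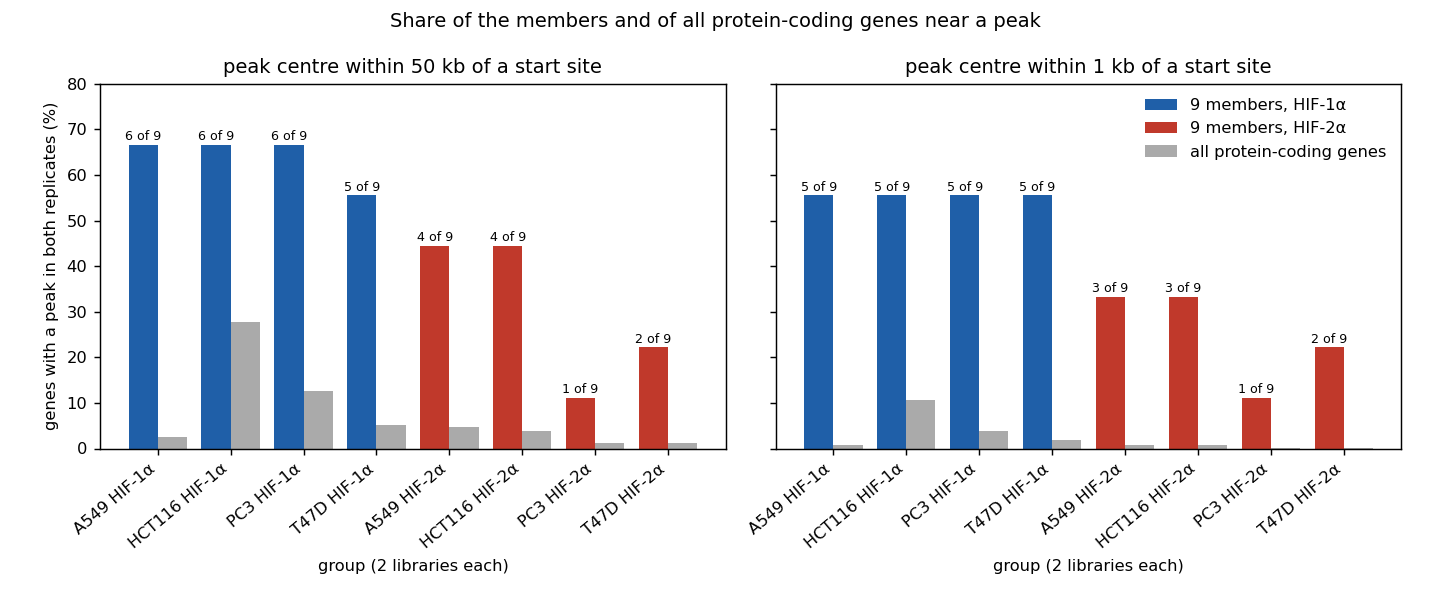
Share of the 9 members (blue for HIF-1α, red for HIF-2α, with counts) and of all 19794 protein-coding genes (grey) that had a peak in both replicates of each group, within 50 kb of a start (left) and within 1 kb (right). All 4 HIF-1α groups have 5 members at 1 kb, while the grey bars run from 0.753% to 10.7% for HIF-1α and from 0.162% to 0.738% for HIF-2α.

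The isoforms were compared by an exact permutation test that exchanged the isoform labels within each line in all 1296 ways. Its statistic was the mean over the 4 lines of the HIF-1α minus HIF-2α percentile. The test was run on all 1421 sites found in at least 4 libraries, with Benjamini-Hochberg adjustment over them, and 0.00154 is the smallest p it allows. Of the 7 member sites tested, 4 were higher for HIF-1α, those of BNIP3, BNIP3L, LONP1 and AK4. Among all sites tested, 10.8% were higher for HIF-1α. When only the 314 sites in at least 8 libraries were tested, 176 were higher for HIF-1α, as were 4 of the 6 member sites among them. Of the members 0 were higher for HIF-2α, as were 0.0704% of all sites, and 0 member sites reached an unadjusted p under 0.05 in that direction. The 7 sites had to be present in 4 libraries to be tested, and the other 9 had no test. BNIP3 and LONP1, each with a peak in 2 HIF-2α libraries, met this requirement only through HIF-1α. Their p-values are therefore no independent support for an isoform difference.

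The difference was 67.3 points at BNIP3 (means 87.0 for HIF-1α and 19.7 for HIF-2α), 52.5 at BNIP3L (97.5 and 44.9), 71.2 at LONP1 (84.2 and 13.0) and 14.6 at AK4 (95.7 and 81.1). Each had an adjusted p of 0.0233 by the exact permutation test, the smallest reached by any site, with the same direction in 4 of 4 lines. By the same exact test the difference did not pass at MXI1, where it was 15.8 (83.4 and 67.6, adjusted p = 0.465). At the main site near ID1 it was 14.9 (70.7 and 55.8, exact test, adjusted p = 0.243), and at the second it was -2.84 (19.5 and 22.3, adjusted p = 0.866). BNIP3 and LONP1 thus differed between isoforms mostly in whether a peak was listed, and AK4 in rank alone, its peak being listed in every library.

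The call at AK4 changed with single A549 libraries. It was lost without A549 HIF-1α replicate 2 (difference 14.8, exact test, adjusted p = 0.396) or replicate 3 (14.4, adjusted p = 0.401), and the difference was 5.20 without A549 HIF-2α replicate 2 and 24.0 without replicate 3. The call at BNIP3L was lost without T47D HIF-1α replicate 1, although the difference was still 52.4. MXI1 passed the test without A549 HIF-1α replicate 2, its lowest HIF-1α library (25.4, exact test, adjusted p = 0.0439). Lengths of the peak lists moved with isoform, the HIF-1α lists being the longer in HCT116, PC3 and T47D and the shorter in A549. With the 275 best peaks of each list, the exact test kept the call at BNIP3L (66.0, adjusted p = 0.0184), while AK4 (18.95) had an adjusted p of 0.0501. The differences were then 62.2 at LONP1 and 36.1 at BNIP3. Both sites entered the test only through HIF-1α, so their p-values under any of the alternatives are no independent support either. With any 1 line left out the smallest p the test allows was 0.00926. Without A549 the exact test still called all 4 sites and also MXI1 (adjusted p = 0.0492), with a difference of 6.37 at AK4. Without HCT116, PC3 or T47D no site passed, and the adjusted p of the 4 sites was 0.0638, 0.0730 and 0.0964 by the exact test, with all 4 differences above 0. When sites were scored only by the presence of a peak, 0 sites were called in either direction, with 312 higher for HIF-1α and 9 higher for HIF-2α at an unadjusted p under 0.05. The differences in presence were then 0.75 at BNIP3 and at LONP1 (exact test, adjusted p = 0.128), 0.375 at BNIP3L (adjusted p = 0.301) and 0 at AK4.

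**Figure D4:**
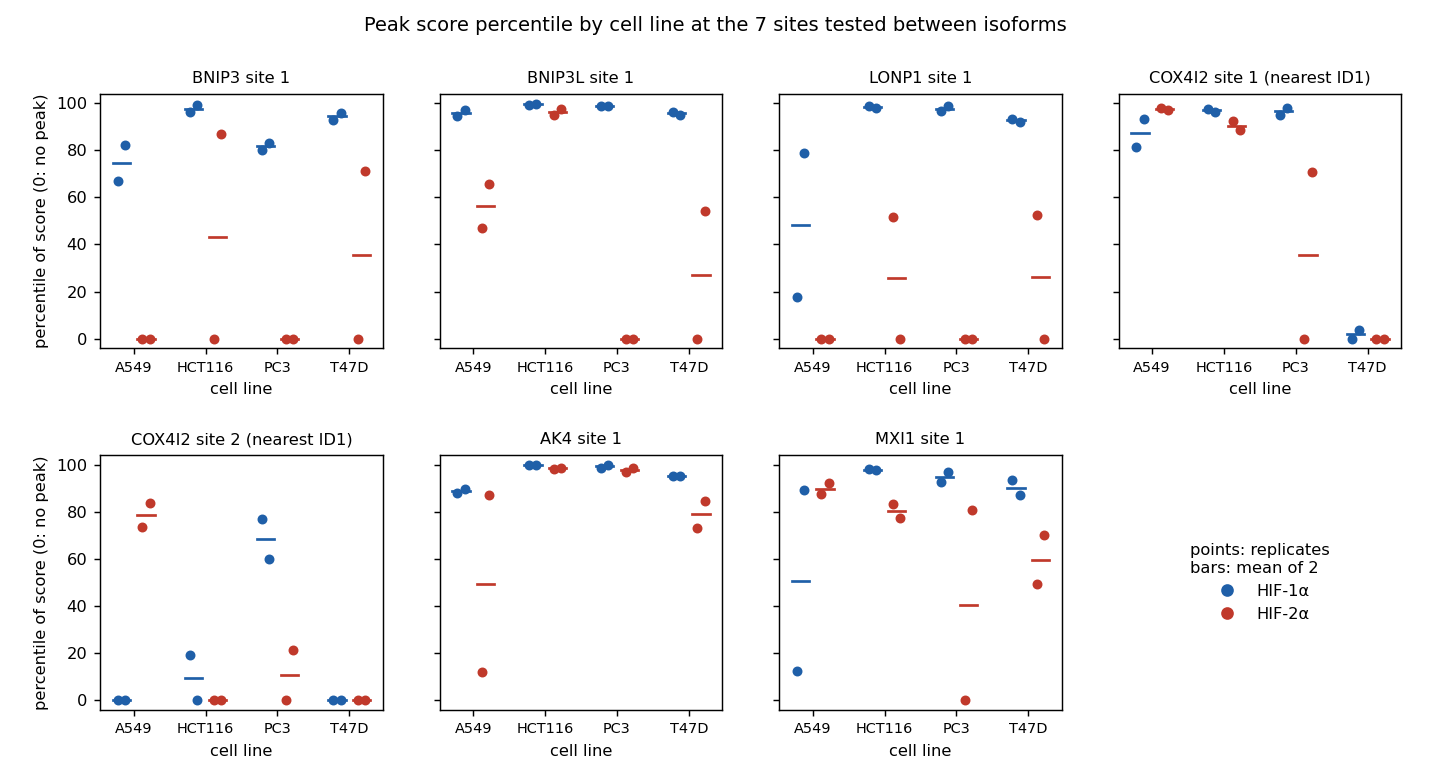
Percentile of the peak score (y axis, 0 where no peak was listed) by cell line for HIF-1α (blue) and HIF-2α (red) at the 7 tested sites, with points for the 2 replicates and bars for their mean. HIF-1α points lie above HIF-2α points in every line at BNIP3, BNIP3L, LONP1 and AK4, and the order turns over between A549 and PC3 at both sites near ID1.

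Outside the set, the site whose percentiles were closest over the 16 libraries was named for each best site in at least 8 libraries. The mean absolute difference was smallest for BNIP3L, at 5.43 points from a site 10 bp upstream of ZNF292. That site had no HIF-2α peak in PC3 or T47D. AK4 was 7.76 points from a site at CLK3, LONP1 8.47 from one at GUK1, and the main ID1 site 8.69 from one 75291 bp from PFKFB3. BNIP3 was 11.5 points from a site at NUDT18 and MXI1 12.2 from one at PKM, which encodes pyruvate kinase. These measures of likeness compare sites in the same libraries and carry no test.

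Other genes of the same processes were taken from 7 lists of 71 genes, all found in the annotation. A site within 1 kb of a start in both replicates of at least 1 HIF-1α group was found for 21 of the 71, where 12.0% of all genes had one, and for 1 of the 71 with HIF-2α (1.22% of all genes). Among 15 mitophagy receptors, adaptors and regulators, 2 had such a HIF-1α site, the kinase TBK1 and the deubiquitinase USP30, while PINK1, a kinase that accumulates on damaged mitochondria, had none. Of 11 genes of the core autophagy machinery 5 did: ATG9A in 3 lines, and BECN1, MAP1LC3B, GABARAPL2 and RB1CC1 in HCT116 only. MIEF2, a receptor for the fission protein DRP1, was the sole gene of 9 in mitochondrial fission and fusion. The ATG9A site lay nearer to a start of ANKZF1 (428 bp) than to one of ATG9A (-670 bp). At TBK1 the HIF-1α percentiles were 89.7 and 54.0 in HCT116 and only 17.3 and 1.83 in T47D.

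Of 8 other mitochondrial proteases, 4 had a HIF-1α site within 1 kb of a start. These were CLPX in 3 lines, CLPP in HCT116 and PC3, and AFG3L2 and SPG7 in HCT116 only. The HCT116 HIF-1α percentiles were 61.2 and 18.3 at AFG3L2 and 16.2 and 13.8 at SPG7. CLPX, the unfoldase of the ClpXP protease, had a peak in 7 HIF-1α libraries and in 0 HIF-2α libraries. Among the paralogs of the members, COX4I1, the constitutive counterpart of COX4I2, had a site in HCT116, at -116 bp and nearer to EMC8 (-23 bp). The paralogs of FUNDC1, NDUFA4L2, HIGD1A and MXI1 (MXD1, MXD3 and MXD4 for the last) had none. In the MYC-MAX network 3 of 6 had one (MAX, MNT and MGA). Of 8 pyruvate dehydrogenase kinases and regulators of mitochondrial biogenesis 4 did: PDK1, PDK3, NRF1 and PPARGC1B. Some of the peaks counted ranked low in their lists. The HIF-1α percentiles were 80.9 and 5.80 at MGA in PC3. At MAX they were 5.60 and 46.8 in PC3 and 74.8 and 45.2 in HCT116.

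PDK1 and PDK3 encode kinases that shut off the entry of pyruvate into mitochondria. PDK1 had a peak in all 16 libraries, at percentiles from 71.3 to 99.9, and a difference of 13.4 points (exact permutation test, adjusted p = 0.0233). PDK3 had a peak in all 8 HIF-1α libraries, from 25.4 to 95.0, and in 0 of the 8 HIF-2α libraries, so that it entered the test through HIF-1α alone and no test is given. PDK1 was the only gene of the 71 with a HIF-2α site at its promoter in both replicates of a line.

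At the edge of the 50 kb window, the sites just inside were the LRP1 intron site of NDUFA4L2 at 47306 bp and those near ID1 at 24887 to 32317 bp from COX4I2. The first sites outside were another in LRP1 at 51717 bp from NDUFA4L2 and one at 51750 bp from BNIP3L, each in 1 library. The choice of 50 kb thus mattered for COX4I2, which had a site in 3 HIF-1α and 2 HIF-2α groups within 50 kb and in none within 1 kb.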

How the data were processed

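ChIP-seq peak lists of HIF-1α and HIF-2α from 16 libraries (8 groups of 2) were used, with groups taken from the sample labels. Per the submitters' processing notes and the methods, the authors trimmed reads with Trim Galore 0.3.3, aligned them with BWA 0.7.5a-r405 to GRCh37, filtered them with SAMtools 0.1.19, bedtools 2.17.0 and Picard 2.0.1, and called peaks in each library with MACS in control mode (version not given in the sources used here). The score deposited by the authors is that of the peak caller. Its scale is not stated, its lowest value was 50 to 50.15 in every list, and it was used for ranks only. A peak can be missed in a library of lower depth, which is unknown. HIF-1β and expression were not analysed here. The paper's methods also describe T-PIC as a further peak caller, with peaks kept when both callers detected them. Those methods add a count filter against background regions and require overlap between replicates. The lists used here also held peaks found in a single replicate.

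Peaks were merged at 1 bp overlap, with the median of the peak centres as the centre of a site. Starts came from protein-coding transcripts of GENCODE release 44 on GRCh37, and the annotation's canonical transcript gave the representative start. Python 3.11.15, numpy 2.4.6 and scipy 1.17.1 were used, and the exact test was tested on simulated data. The members, gene lists and tests were chosen with earlier results of these data known. Named were all 9 members with every site in their windows, the closest other site by mean absolute difference, and list genes with a peak within 1 kb in both replicates of a group. Results of some list genes are not reported here. Of the peaks, 29 off chromosomes 1 to 22, X and Y were not assigned to genes. Alternatives comprised other measures, thresholds, windows, start sites and motif windows, equal list lengths, pairing by replicate number, and leaving out each library and each line.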

Additional observations from a re-analysis of the deposited data

Results flagged for a closer look

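The isoform difference (HIF-1α minus HIF-2α percentile) had opposite signs in different lines at both sites near ID1 in the COX4I2 window. At the main site it was -10.0 in A549, 6.58 in HCT116 and 61.2 in PC3, with both libraries of one isoform above both of the other in each of these lines. At the second site it was -78.7 in A549 and 57.8 in PC3. With 2 replicates for each isoform in a line, the difference between lines was not tested. The PC3 HIF-2α list of replicate 1, which lacked both sites, held 275 peaks and that of replicate 2 held 1290, and the part of list length in the PC3 values was not tested.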

How the results depend on the processing

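Of 1421 sites tested, 154 were higher for HIF-1α and 1 for HIF-2α. Scoring presence alone, testing sites in at least 2 libraries (4722 sites), and leaving out HCT116, PC3 or T47D each gave 0 and 0, while 176 to 445 and 5 to 26 sites had an unadjusted p under 0.05 (312 and 9 for presence). With any line left out the smallest possible p was 0.00926, yet without A549 226 sites were higher for HIF-1α. With 4722 sites the adjusted p at the 4 called members became 0.0775 with the values unchanged. The HIF-2α count was 0 for log10 scores and without A549 (21 and 1 unadjusted), 20 with equal numbers of peaks, 3 with scores of at least 74.55 and 10 for sites in at least 8 libraries. Leaving out 1 library gave 93 to 284 for HIF-1α and 0 to 13 for HIF-2α, the HIF-1α count being 93 without A549 HIF-1α replicate 3, 284 without its replicate 2, 252 without PC3 HIF-1α replicate 1, and 254 and 255 without T47D HIF-1α replicates 1 and 2. The difference reversed to 22.4 at the second ID1 site without A549 and to -0.516 at the main one without PC3. AK4 was also lost with scores of at least 74.55 (23.6, exact permutation test, adjusted p = 0.0773), and MXI1 was called without A549 (34.1, adjusted p = 0.0492). HIF-2α pairs of a gene and a line were 19 with either replicate. The HIF-1α pairs (20 to 26) and the sites with a core (11 to 16) stayed within 1.5 times under the alternatives run. Replicate numbers did not pair the libraries (correlations of deviations 0.0167 to 0.0575). With the number as a block 0 and 0 sites were called, and 279 and 18 had an unadjusted p under 0.05. The smallest p that this block allows is 0.00781. Causes of these changes were not tested. Unknown depth limits every statement on a missing peak.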
